A study of Macaca mulatta with 13 samples.

Results

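The genes described here encode the T cell receptor complex and the proteins that act next to it: the CD3 chains CD3D, CD3E, CD3G and CD247, the coreceptors CD8A, CD8B and CD4, the kinases LCK and ZAP70, and the adaptor LAT. Every probe set that the platform annotation pairs with exactly 1 of these 10 symbols was taken, which gave 11 probe sets for 5 genes among 52707 probe sets in all. CD8A had 2 probe sets, CD8B 2, CD4 1, ZAP70 2 and LAT 4. CD3D, CD3E, CD3G, CD247 and LCK had no probe set under that rule and were not analysed here, so the values below cover the coreceptors, 1 of the 2 kinases and the adaptor, and no chain of the receptor itself.

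The arrays measured peripheral blood mononuclear cells, the lymphocytes and monocytes of the blood, of 13 rhesus macaques aged 4 months. 4 animals were surrogate-peer reared, 4 were peer reared and 5 were maternally reared, with 1 array an animal, and the study asks whether blood cell expression differs with early rearing. The labels give no treatment, genotype or sex, and do not say how the surrogate-peer and peer rearing were carried out. The peer and surrogate-peer animals together are called the 8 non-maternal animals below. Values are log2 RMA values, on which 1 unit is a doubling, and a level is read within a probe set only, since different probe sets bind RNA with different strength.

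A T cell recognises antigen through its receptor chains, which signal through the CD3 chains. CD4 and CD8, the coreceptors, bind the presenting molecule and bring the kinase LCK to the receptor. CD4 marks mainly helper T cells, and in macaques monocytes also carry it. CD8 is a pair of alpha chains, or an alpha and a beta chain. The alpha-beta form marks cytotoxic T cells, and macaque NK cells carry the alpha chain without the beta chain. LCK phosphorylates the CD3 chains, ZAP70 docks there and phosphorylates LAT, and LAT, a scaffold in the membrane, gathers the phospholipase and adaptors that pass the signal on.

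Of the 13 arrays, maternal 2 and maternal 5 stood apart in their cell type markers. A marker score is the mean over a list's measured genes of the log2 value minus the gene's own mean over the 13 arrays. The T cell score, over 6 of 10 listed genes (TCF7, TRAT1, CD5, CD6, CD28 and BCL11B), ran from 0.01 to 0.44 on surrogate-peer arrays and from 0.07 to 0.25 on peer arrays. It was -0.55 on maternal 2 and -0.48 on maternal 5, and ran from -0.29 to 0.10 on the other maternal arrays. The monocyte score, over 9 of 12 listed genes, ran from -0.57 to 0.42 on surrogate-peer arrays and from -0.39 to 0.06 on peer arrays, and was 0.86 on maternal 2 and 0.68 on maternal 5. The signal at the 3' end of control transcripts relative to the 5' end, a sign of RNA quality, was 1.33 to 1.46 (log2) on surrogate-peer arrays, 1.40 to 1.74 on peer arrays and 1.55 to 2.23 on maternal arrays. Array medians were 5.995 to 6.043 in non-maternal animals and 6.048 to 6.06 in maternal animals, without overlap. T cell markers were present on all arrays, with TCF7 averaging 13.02 ± 0.12 (SD, n = 8) in non-maternal animals and 12.39 ± 0.59 (SD, n = 5) in maternal animals. In bulk RNA of this kind, fewer cells of a type and less RNA per cell cannot be told apart.

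**Figure D1:**
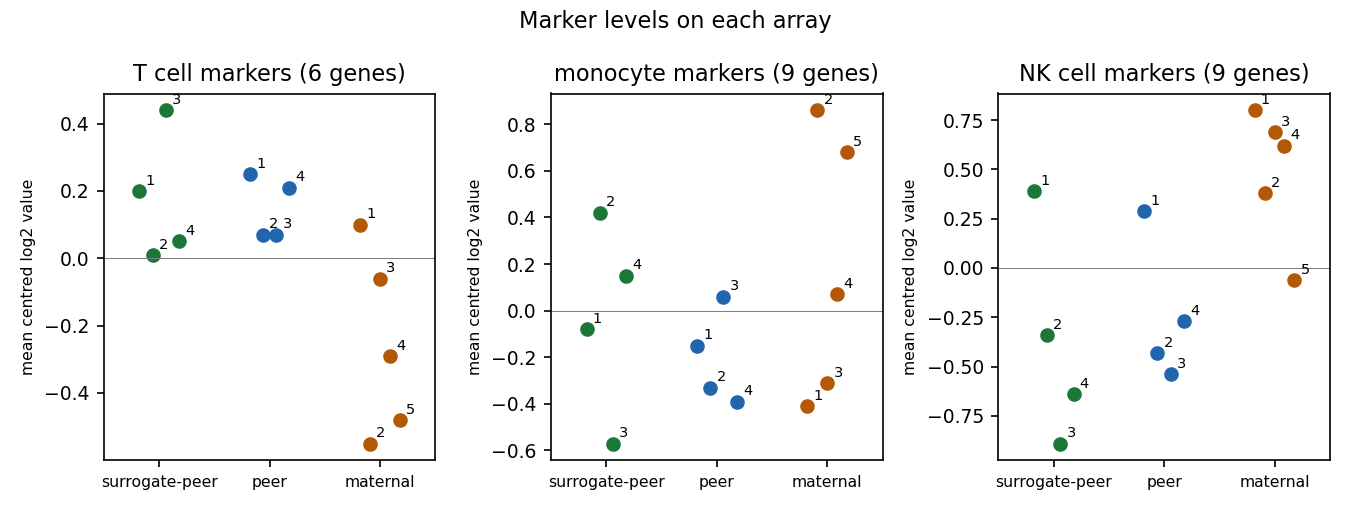
Scores of marker lists on each array (vertical axis: mean centred log2 value, each point 1 array; groups along the horizontal axis), one panel a cell type. Maternal arrays 2 and 5 hold the lowest T cell scores, -0.55 and -0.48, and the highest monocyte scores, 0.86 and 0.68.

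Differences were tested with limma over 26352 probe sets whose mean was above 6.04 on the log2 scale, and a probe set was called at a Benjamini-Hochberg adjusted p under 0.05. 9 of the 11 member probe sets were tested, and the second CD8B and the fourth LAT probe set were below that level. The first comparison set the 8 non-maternal animals against the 5 maternal animals. CD8A rose in the non-maternal animals on 1 of its 2 probe sets and LAT on 1 of its 3 tested ones, by 1.85-fold and 1.41-fold. These were 2 of the 9 tested member probe sets, both higher, where 8.0% of all tested probe sets were called in either direction and 6.64% as higher. All 9 had a log2 fold change above 0, with a median of 0.28 against 0.01 over all probe sets tested, of which 51.0% were above 0. By an unadjusted p under 0.05, 4 of 9 passed, against 29.0% of all tested probe sets. With each array centred on its median the calls over all probe sets split into 1094 higher and 834 lower, and after quantile normalization into 886 and 451, against 1751 and 356 as deposited. Without maternal arrays 2 and 5 none of the 9 was called, and 37 probe sets were called in all, against 2107 with every array.

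The second probe set of CD8A, the alpha chain of CD8, had the largest log2 fold change of the 9 tested member probe sets. By first probe sets, CD8B differed more than CD8A, by 0.75 against 0.64. On the second CD8A probe set (Mmu.2250.1.S1_at) the surrogate-peer arrays read 9.20, 8.48, 9.26 and 8.76, the peer arrays 8.96, 8.57, 9.09 and 9.30, and the maternal arrays 8.36, 7.87, 8.15, 8.06 and 7.86. All 8 non-maternal animals lay above all 5 maternal animals, and maternal 2 and 5 were the lowest. This was the only 1 of the 9 member probe sets without overlap between the groups, a state found in higher direction for 1.89% of all tested probe sets. The log2 fold change was 0.89 ± 0.16 (SE; 95% interval 0.55 to 1.23; adjusted p = 0.0203), with means of 8.95 ± 0.32 (SD, n = 8) in non-maternal and 8.06 ± 0.21 (SD, n = 5) in maternal animals. The call was lost without maternal 4 (0.89, adjusted p = 0.0618), without maternal 5 (0.84, adjusted p = 0.0527) and without maternal 2 and 5 together (0.76, adjusted p = 0.0751).

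The first CD8A probe set (MmugDNA.5711.1.S1_at) did not pass the threshold. It read 12.02, 11.14, 11.87 and 11.54 on surrogate-peer arrays, 11.81, 11.36, 11.70 and 12.09 on peer arrays, and 11.36, 10.67, 11.35, 11.28 and 10.61 on maternal arrays. Surrogate-peer 2 lay below 3 of the 5 maternal animals, and maternal 2 and 5 lay well below all others. The log2 fold change was 0.64 ± 0.19 (95% interval 0.23 to 1.05; adjusted p = 0.0562). It was 0.36 without maternal 2 and 5, so those animals moved it more than they moved the second probe set.

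CD8B, the beta chain, followed CD8A. Its first probe set (MmugDNA.16367.1.S1_at) read 10.66, 9.72, 10.17 and 10.29 on surrogate-peer arrays, 10.41, 9.97, 10.35 and 10.99 on peer arrays, and 9.47, 9.19, 9.99, 10.07 and 9.11 on maternal arrays. 6 of the 8 non-maternal animals lay above the highest maternal animal, and surrogate-peer 2 and peer 2 lay within the maternal range. The log2 fold change was 0.75 ± 0.22 (95% interval 0.28 to 1.23), and the adjusted p of 0.0525 missed the threshold. It was 0.48 without maternal 2 and 5. The second CD8B probe set (MmugDNA.37234.1.S1_at), too dim to be tested, read 4.66 to 5.24 on surrogate-peer arrays, 4.60 to 5.16 on peer arrays and 4.19 to 4.77 on maternal arrays, and was again lowest on maternal 2 and 5.

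Across the 13 arrays the CD8A and CD8B first probe sets stayed close. Their values, each centred on its own mean, differed by a root mean square of 0.20, against 0.19 between the CD8A probe sets themselves, where the SDs over the arrays were 0.46 for CD8A and 0.55 for CD8B. The second CD8A probe set differed from that of CD8B by 0.29. Seen from CD8A, such closeness was not particular to the pair. The 5 genes nearest to the first CD8A probe set, named further below, differed from it by 0.159 to 0.17. Seen from CD8B, the nearest of 8981 genes outside the members was CSPG5. It differed from the first CD8B probe set by 0.229, more than CD8A did. The SD of CD8B was larger than that of 93.8% of all tested probe sets, and those of the 2 CD8A probe sets were larger than 89.3% and 92.9%. The genes of the alpha and beta chains overlap in the RefSeq annotation of the rhesus genome (assembly T2T-MMU8v2.0), which was used for names and neighbours only. The NK cell score, over 9 of 12 listed genes, went the other way from CD8A in group means only. Its means were -0.37 in surrogate-peer, -0.24 in peer and 0.49 in maternal animals. It was -0.89 to 0.39 on surrogate-peer arrays, -0.54 to 0.29 on peer arrays and -0.06 to 0.80 on maternal arrays. Single arrays did not all follow: surrogate-peer 1 was high in both, and maternal 5 had the lowest maternal score and the lowest CD8A. In the non-maternal animals 3 of those 9 genes were called lower, where 1.35% of all tested probe sets were, and 1 was called higher, where 6.64% were. The median log2 fold change of the 9 genes was -0.87, with 1 of the 9 above 0. The T cell score given above was, like CD8A and CD8B, higher in group mean in both non-maternal groups than in maternal animals. All 6 of its genes had log2 fold changes above 0 on the probe set that stood for them, with CD6 at 0.01 and CD28 at 0.03. Further tested probe sets gave 0.28 and 0.19 for CD6, and 0.53 and -0.07 for CD28, and none of these was called. 1 of the 6, BCL11B, was called higher, where 6.64% of all tested probe sets were. Its maternal mean of 5.87 was under 6.04, so it was among the tested probe sets only through the non-maternal animals. The B cell score, over 9 of 11 listed genes, was -1.15 to -0.18 on surrogate-peer arrays, -0.29 to 0.54 on peer arrays and 0.03 to 0.99 on maternal arrays. In non-maternal animals 0 of these 9 genes had a log2 fold change above 0, and their median was -0.70. FCRLA, 1 of the 9, was called lower, where 1.35% of all tested probe sets were. The median of the B cell genes was -1.19 for surrogate-peer over maternal animals and -0.21 for peer over maternal animals. The basophil score, over 3 of 5 listed genes, was -0.16 to 1.16 on surrogate-peer arrays and -0.07 to 1.33 on peer arrays. On maternal arrays it was -1.55 to 0.12. In non-maternal animals 2 of the 3 genes, FCER1A and CPA3, were called higher, where 6.64% of all tested probe sets were. The part of these 4 cell types in the CD8A and CD8B differences was not tested.

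CD4 varied least of the tested members. Its probe set (Mmu.15035.1.S1_at) read 7.30, 7.13, 7.10 and 7.06 on surrogate-peer arrays, 7.12, 6.98, 7.06 and 7.08 on peer arrays, and 7.09, 6.96, 7.11, 6.79 and 6.79 on maternal arrays. The groups overlapped, with maternal 1 and 3 inside the range of the other animals and maternal 4 and 5 lowest. The log2 fold change was 0.16 ± 0.08 (95% interval -0.01 to 0.32; adjusted p = 0.187). The SD over the 13 arrays was 0.14, larger than that of 21.9% of tested probe sets. With the number in the sample title as a covariate, whose meaning the labels do not state, CD4 gave 0.29 (adjusted p = 0.0468). In that setting 3127 of the 26352 tested probe sets were called, against 2107 in the main fit. It was the only 1 of 21 settings in which CD4 passed. The number was tied to the groups, at 9 to 32 for surrogate-peer, 35 to 47 for peer and 31 to 55 for maternal animals.

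**Figure D2:**
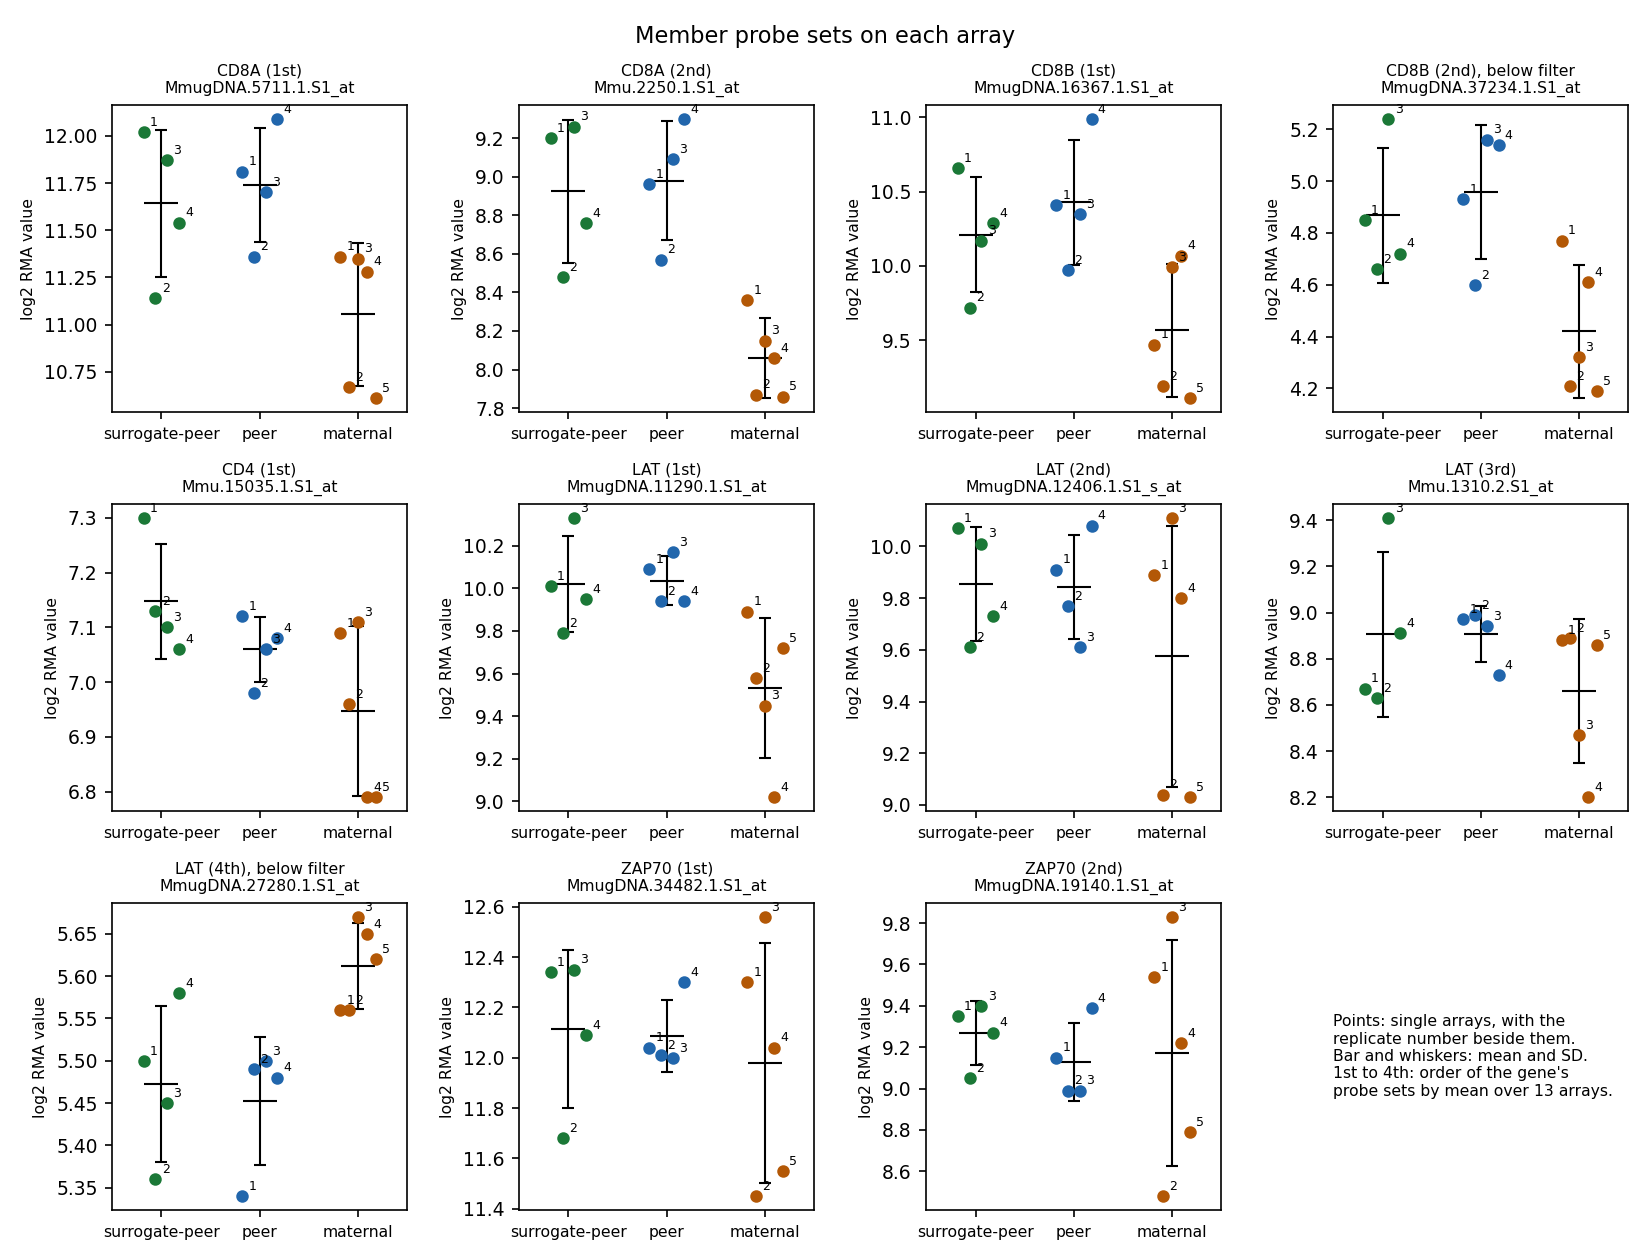
Values of the member probe sets on each array (vertical axis: log2 RMA value; each point 1 array; surrogate-peer, peer and maternal groups along the horizontal axis), one panel a probe set. On the second CD8A probe set the 8 non-maternal animals, 8.48 to 9.30, all lie above the maternal animals, 7.86 to 8.36, and the ZAP70 and second LAT panels overlap widely.

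ZAP70, the kinase that binds the phosphorylated CD3 chains and is also expressed by NK cells, was not called on either probe set. The first (MmugDNA.34482.1.S1_at) read 12.34, 11.68, 12.35 and 12.09 on surrogate-peer arrays, 12.04, 12.01, 12.001 and 12.304 on peer arrays, and 12.30, 11.45, 12.56, 12.04 and 11.55 on maternal arrays. Maternal animals held both ends of the range, with maternal 3 highest and maternal 2 and 5 lowest. The log2 fold change was 0.12 ± 0.19 (95% interval -0.28 to 0.53; adjusted p = 0.679), an interval that holds fold changes from 0.823 to 1.44. The second (MmugDNA.19140.1.S1_at) ran from 9.05 to 9.40 on surrogate-peer arrays, from 8.99 to 9.39 on peer arrays and from 8.48 to 9.83 on maternal arrays, with a log2 fold change of 0.03 ± 0.19 (95% interval -0.39 to 0.44; adjusted p = 0.938). Without maternal 2 and 5 both changed sign, to -0.20 (adjusted p = 0.451) and -0.33 (adjusted p = 0.181). The second was also below 0 with arrays centred on their median (-0.04) and after quantile normalization (-0.07). The 2 ZAP70 probe sets agreed across arrays, with a root mean square difference of 0.12.

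LAT gave different answers on its probe sets. The first (MmugDNA.11290.1.S1_at) read 10.01, 9.79, 10.33 and 9.95 on surrogate-peer arrays, 10.09, 9.94, 10.17 and 9.94 on peer arrays, and 9.89, 9.58, 9.45, 9.02 and 9.72 on maternal arrays. 7 of the 8 non-maternal animals lay above the highest maternal animal, and surrogate-peer 2 lay below maternal 1. LAT rose on this probe set by 0.50 ± 0.14 on the log2 scale (95% interval 0.20 to 0.79; adjusted p = 0.0442). The call was close to the threshold: it was lost in 17 of 22 other settings. Over the 22 settings the log2 fold change stayed between 0.37 and 0.59, and the adjusted p ran from 0.0126 to 0.104. The fold change was 0.37 without maternal 4, the lowest animal, and 0.57 without maternal 2 and 5 (adjusted p = 0.0952).

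The second LAT probe set (MmugDNA.12406.1.S1_s_at) read 10.07, 9.61, 10.01 and 9.73 on surrogate-peer arrays, 9.91, 9.77, 9.61 and 10.08 on peer arrays, and 9.89, 9.04, 10.11, 9.80 and 9.03 on maternal arrays. Here maternal 3 was the highest of all arrays, and maternal 2 and 5 were the lowest, as for ZAP70. The log2 fold change was 0.28 ± 0.19 (95% interval -0.13 to 0.68; adjusted p = 0.335), and -0.08 without maternal 2 and 5. The third (Mmu.1310.2.S1_at) read 8.67, 8.63, 9.41 and 8.91 on surrogate-peer arrays, 8.97, 8.99, 8.94 and 8.73 on peer arrays, and 8.88, 8.89, 8.47, 8.20 and 8.86 on maternal arrays. It was lowest on maternal 4 and 3, like the first, and its log2 fold change was 0.25 ± 0.15 (95% interval -0.08 to 0.57; adjusted p = 0.293). The fourth (MmugDNA.27280.1.S1_at), too dim to be tested, read 5.36 to 5.58 on surrogate-peer arrays and 5.34 to 5.50 on peer arrays. On maternal arrays it read 5.56 to 5.67. Its log2 fold change was -0.15 (95% interval -0.26 to -0.03), opposite in sign to those of the tested LAT probe sets.

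The tested LAT probe sets fell into a pair and a single one. The first and the third differed over the 13 arrays by a root mean square of 0.18. The second differed from the first by 0.42 and from the third by 0.46, yet from the ZAP70 probe sets by 0.12 and 0.17. So the second LAT probe set tracked the 2 probe sets of another gene more closely than those of its own symbol. On maternal 3 and 4, where the first and the third LAT probe sets were lowest, the 3' to 5' log2 ratio was 2.0 and 2.23, the highest of all arrays; on maternal 1, where the first LAT probe set was the highest of the maternal group, it was 1.93. The part of RNA quality in the LAT difference was not tested. Which of the probe sets follows the LAT transcript cannot be told from these values, so the call on the first holds for that probe set and not for the gene.

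**Figure D3:**
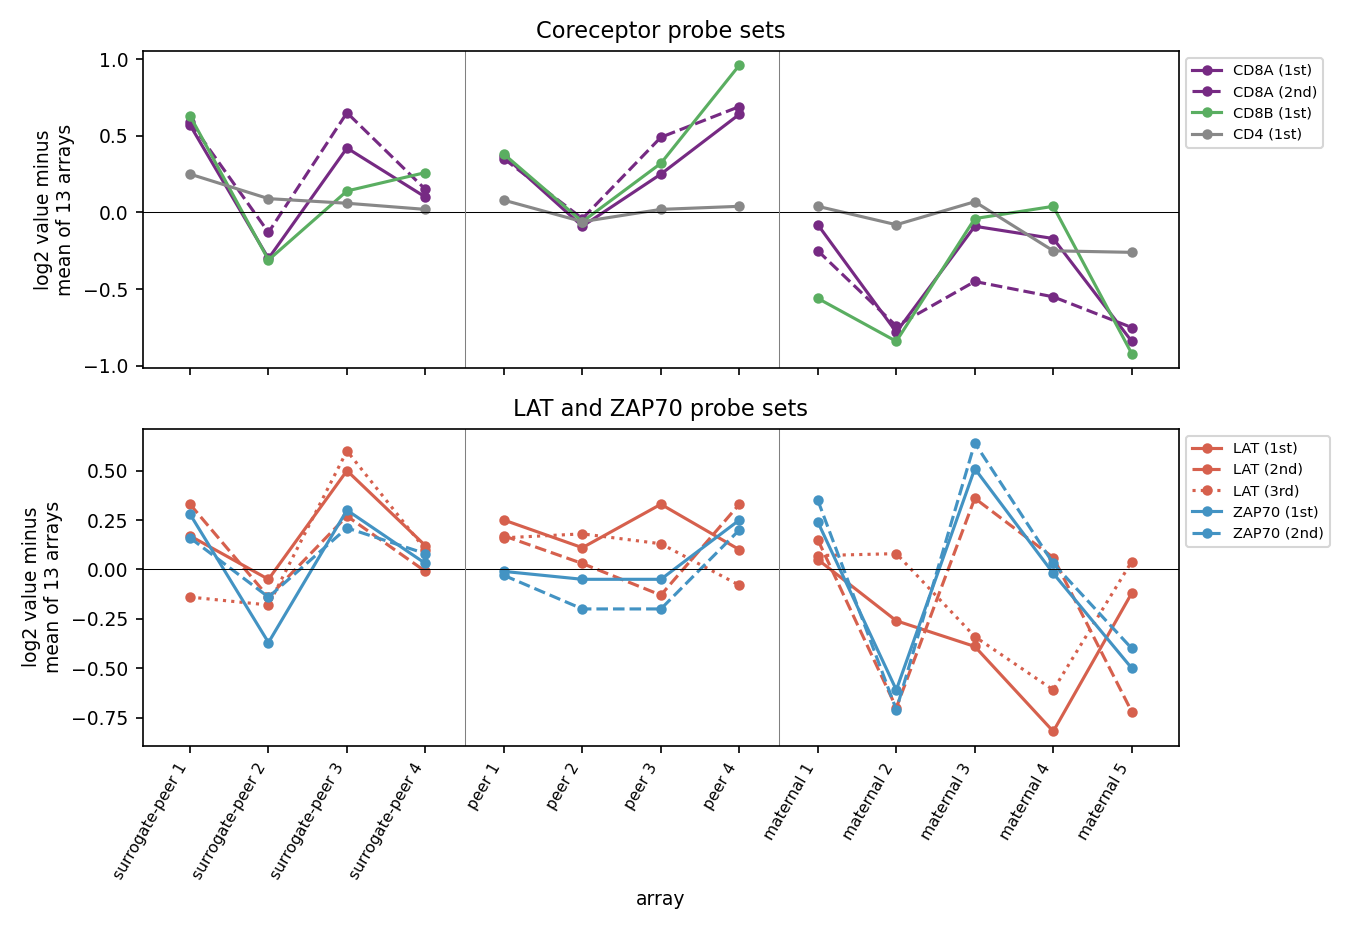
Member values on each of the 13 arrays after subtracting the probe set's mean over all arrays (vertical axis: centred log2 value; arrays along the horizontal axis, grouped as surrogate-peer, peer and maternal; lines join arrays of a group). In the lower panel the second LAT probe set runs with both ZAP70 probe sets, highest on maternal 3 and lowest on maternal 2 and 5, while the first and the third LAT probe sets are lowest on maternal 3 and 4.

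CD8A and ZAP70 were both low on maternal 2 and 5, where T cell markers were low. The distance between the 2 genes differed from array to array, on maternal 2 and 5 as well. The first CD8A probe set minus the first ZAP70 probe set, each centred, was 0.29, 0.07, 0.12 and 0.07 on surrogate-peer arrays, 0.37, -0.04, 0.31 and 0.39 on peer arrays, and -0.33, -0.17, -0.60, -0.15 and -0.33 on maternal arrays. It was above 0 in 7 of 8 non-maternal and 0 of 5 maternal animals, and averaged 0.20 ± 0.16 (SD, n = 8) in non-maternal and -0.32 ± 0.18 (SD, n = 5) in maternal animals. Of the 10 pairs of the 5 genes, 1 was without overlap between these groups, this one, and it is given without a test because it was picked out among the 10. The difference between the groups was 0.51, and it was 0.56 without maternal 2 and 5; maternal 4, with a T cell score of -0.29, was still included. CD8A minus CD4 differed by 0.48 between the groups, and by 0.25 without maternal 2 and 5.

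**Figure D4:**
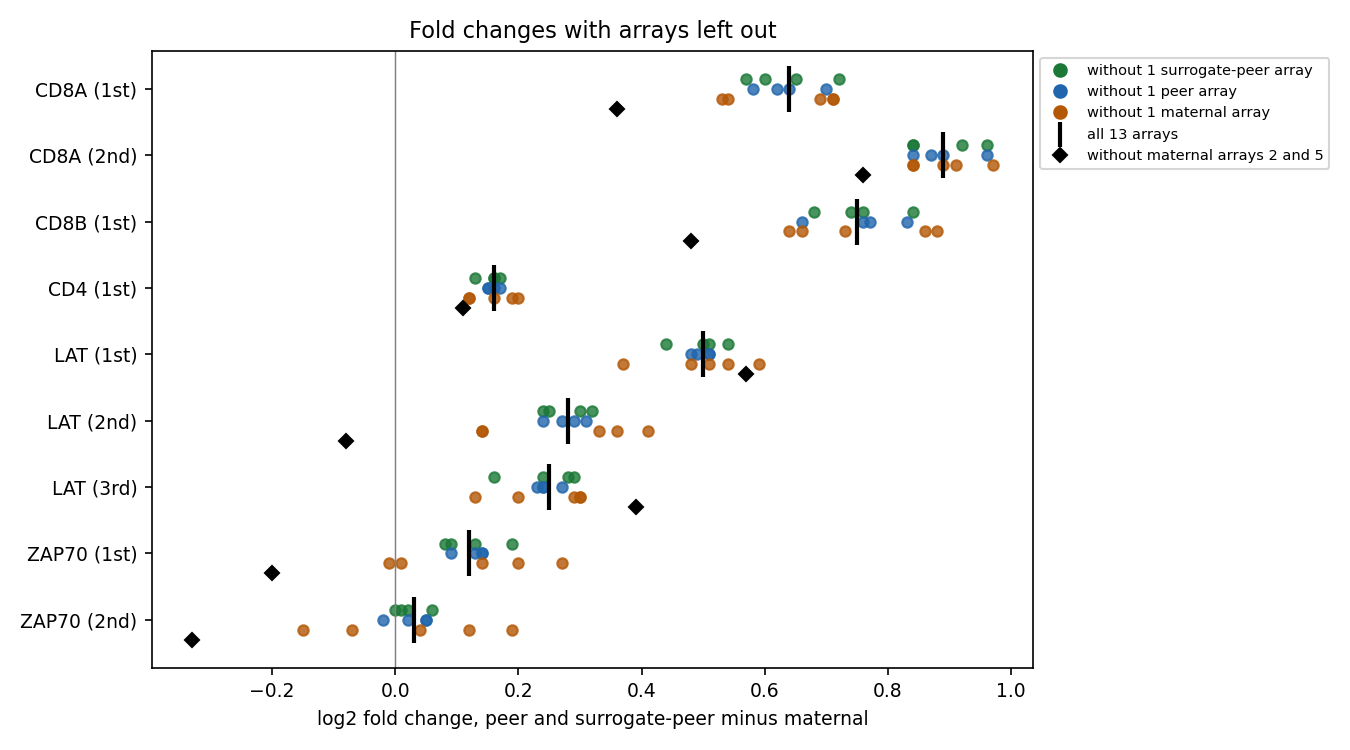
Log2 fold changes of non-maternal over maternal animals (horizontal axis) for the tested member probe sets, with all 13 arrays (bar), with each array left out in turn (points, coloured by the group of the array) and without maternal arrays 2 and 5 (diamond). The second CD8A probe set stays between 0.76 and 0.97, while both ZAP70 probe sets and the second LAT probe set lie below 0 without maternal 2 and 5.

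The peer and the surrogate-peer animals were also set against the maternal animals one group at a time. Both comparisons share the 5 maternal arrays, so their values are given side by side and not as support for each other. No member probe set was called in either: 0 of 9 for peer animals, where 0.353% of all tested probe sets were called, and 0 of 9 for surrogate-peer animals, where 0% were. By an unadjusted p under 0.05, 4 of 9 passed for peer animals, against 24.9% of all tested probe sets, and 5 of 9 for surrogate-peer animals, against 20.3%.

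For peer over maternal animals, 2 member probe sets, the second CD8A and the first LAT, were higher in every peer animal than in any maternal animal, as were 5.63% of all tested probe sets. The second CD8A probe set averaged 8.98 ± 0.31 (SD, n = 4) in peer animals and 8.06 ± 0.21 (SD, n = 5) in maternal animals, a log2 fold change of 0.92 ± 0.18 (95% interval 0.52 to 1.32; adjusted p = 0.0511). LAT on its first probe set differed by 0.50 ± 0.16 (adjusted p = 0.0933) and CD8B by 0.86 ± 0.26 (adjusted p = 0.0827). CD4 gave 0.11 ± 0.09 (adjusted p = 0.429) and ZAP70 0.11 ± 0.22 (adjusted p = 0.772).

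For surrogate-peer over maternal animals, 1 member probe set, again the second CD8A, was without overlap, as were 2.96% of all tested probe sets in that direction. It averaged 8.92 ± 0.37 (SD, n = 4) in surrogate-peer animals and 8.06 ± 0.21 (SD, n = 5) in maternal animals, a log2 fold change of 0.86 ± 0.18 (95% interval 0.46 to 1.26; adjusted p = 0.0778). CD8B differed by 0.65 ± 0.26 (adjusted p = 0.193), LAT on its first probe set by 0.49 ± 0.16 (adjusted p = 0.134) and CD4 by 0.20 ± 0.09 (adjusted p = 0.232). ZAP70 gave 0.13 ± 0.22 (adjusted p = 0.75).

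Surrogate-peer and peer animals were not told apart by any member. 0 of 9 were called, where 0% of all tested probe sets were, and 0 of 9 passed an unadjusted p under 0.05, against 1.83% of all tested probe sets. Log2 fold changes of surrogate-peer over peer animals lay between -0.22 and 0.14, and every adjusted p was 1. For CD8A the intervals of the first and second probe sets were -0.60 to 0.41 and -0.48 to 0.37, for CD8B -0.81 to 0.37, for CD4 -0.12 to 0.29, for LAT on its first probe set -0.38 to 0.35 and for ZAP70 on its first probe set -0.48 to 0.53. In the order of group means the peer animals came first and the maternal animals last for CD8A and CD8B, with peer and surrogate-peer animals not separable at this number of arrays.

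**Figure D5:**
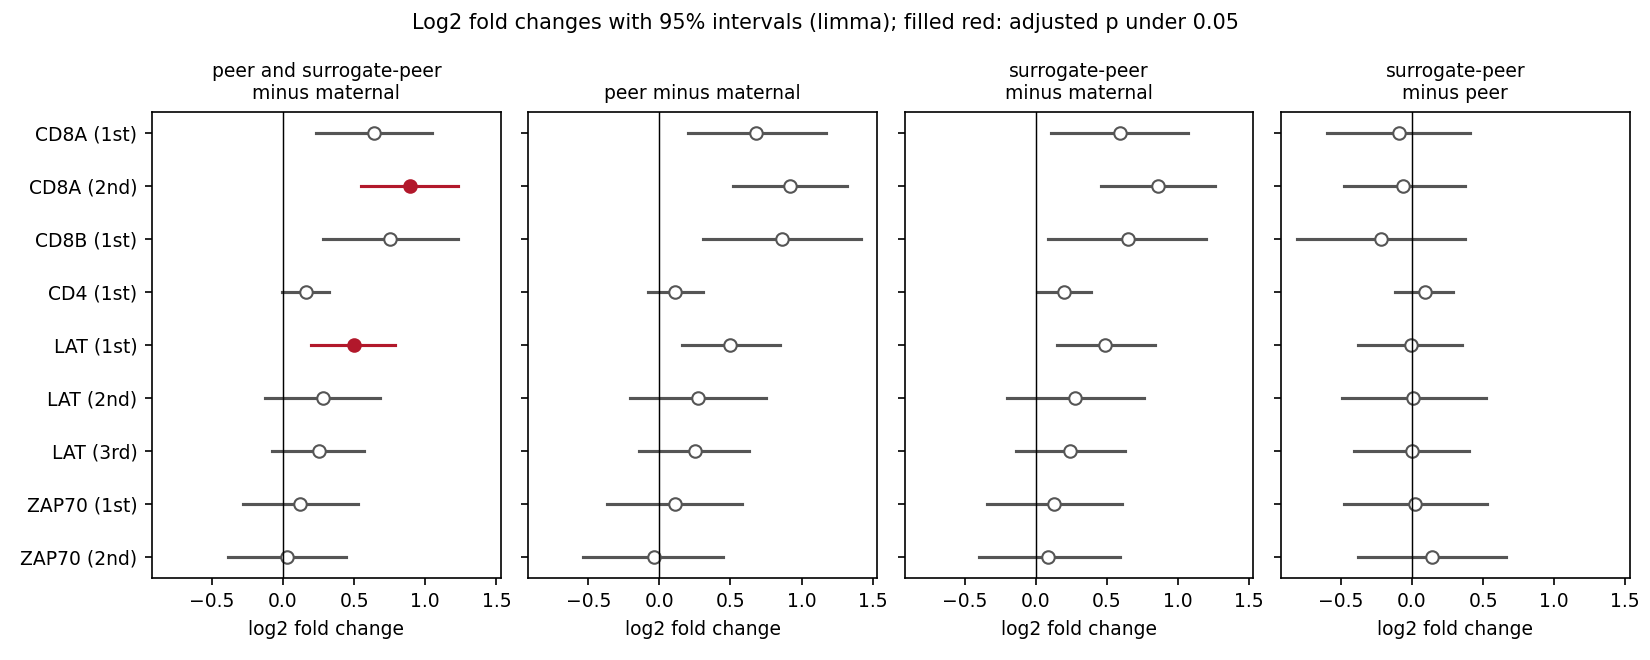
Log2 fold changes of the tested member probe sets (horizontal axis) with 95% intervals from the fit over 13 arrays, one panel a comparison; filled red marks an adjusted p under 0.05. The second CD8A probe set, at 0.89, and the first LAT probe set, at 0.50, are filled in the panel of non-maternal over maternal animals, and no probe set is filled in the other panels.

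Further genes of the pathway were taken from 6 lists of 48 genes, of which 32 were measured with a tested probe set. 0 of the 32 were called higher and 2 lower in non-maternal animals, where 1.35% of all tested probe sets were called lower. Their median log2 fold change was 0.05, with 19 of 32 above 0. By an unadjusted p under 0.05, 10 of the 32 passed, where 29.0% of all tested probe sets did. In each of the 3 other comparisons 0 of the 32 were called by limma, and 7, 7 and 0 of the 32 passed an unadjusted p under 0.05 for peer over maternal, surrogate-peer over maternal and surrogate-peer over peer animals, where 24.9%, 20.3% and 1.83% of all tested probe sets did. Counted over all 58 tested probe sets of these genes, 3 were called higher and 3 lower in non-maternal animals, where 6.64% and 1.35% of all tested probe sets were, since TRAT1, DGKA, DOK1 and UBASH3B each had a further probe set that passed. None of the 6 receptor chain genes had a tested probe set of its own symbol.

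The 2 called genes were both adaptors. SH3BP2, which binds SYK family kinases and their substrates, averaged 8.60 ± 0.13 (SD, n = 8) in non-maternal and 8.92 ± 0.16 (SD, n = 5) in maternal animals and fell by 0.32 on the log2 scale (SE 0.08; adjusted p = 0.0346). SLA, which limits the amount of receptor on the cell surface, averaged 10.62 ± 0.14 in non-maternal and 11.07 ± 0.32 in maternal animals and fell by 0.45 (SE 0.12; adjusted p = 0.0434). A second SLA probe set gave -0.48 ± 0.23 (adjusted p = 0.186). Both genes are also expressed in myeloid cells, and the part of the monocyte score given above was not tested. None of the 32 genes was called without maternal 2 and 5 together, nor with any 1 of surrogate-peer 3 and 4, the 4 peer arrays and maternal 2, 4 and 5 left out. The 11 measured adaptors had a median log2 fold change of -0.12.

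Among the surface receptors, 6 of 8 were measured, with a median of 0.14. On the probe set that stood for the gene, all 6 were above 0 and none was called. TRAT1, a membrane adaptor that binds the receptor complex, gave 0.71 ± 0.21 (adjusted p = 0.0572) on the probe set that stood for it, and rose by 0.83 on another (adjusted p = 0.0335). CD5, a receptor that dampens signalling, gave 0.44 ± 0.18 (adjusted p = 0.141), and -0.02 on a further probe set (adjusted p = 0.875). PTPRC, the CD45 phosphatase that keeps LCK active, gave 0.14 ± 0.10 (adjusted p = 0.351). TRAT1, CD5, CD6 and CD28 also belong to the T cell marker list.

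Of the kinases, 3 of 5 were measured, with a median of -0.15 and none called. PRKCQ, the protein kinase C theta of T cells, gave -0.56 ± 0.17 (adjusted p = 0.0604), CSK, which inhibits LCK, -0.15 ± 0.08 (adjusted p = 0.203) and TXK, a TEC family kinase, 0.24 ± 0.14 (adjusted p = 0.259). PRKCQ lay on the other side of 0 from CD8A and LAT.

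The effectors, 4 of 6 measured, had the highest median of the lists at 0.42, again with none called. RASGRP1, which activates RAS, gave 0.53 ± 0.18 (adjusted p = 0.0783), MALT1, the protease of the NF-kappaB branch, 0.51 ± 0.18 (adjusted p = 0.0912) and PLCG1, the phospholipase that LAT recruits, 0.33 ± 0.22 (adjusted p = 0.322). That median was 0.16 without maternal 2 and 5. The inhibitors, 8 of 9 measured, had a median of 0.13 and none called on the probe set that stood for the gene. DGKA, a kinase that removes diacylglycerol, was at 0.44 ± 0.18 (adjusted p = 0.139) and PTPN6, the SHP-1 phosphatase, at -0.23 ± 0.10 (adjusted p = 0.142). UBASH3B, a phosphatase that acts on ZAP70, was at 0.23 ± 0.11 (adjusted p = 0.193). A further DGKA probe set rose by 0.57 (adjusted p = 0.0231). Of the further UBASH3B probe sets, MmugDNA.39292.1.S1_at rose by 0.52 (adjusted p = 0.0494) and MmugDNA.40429.1.S1_at gave 0.28 (adjusted p = 0.339).

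The genes whose values ran most like a coreceptor were sought among 8981 genes, by the root mean square difference of centred values over the 13 arrays. Nearest to the first CD8A probe set, whose SD was 0.46, were PUM3 (0.159), CAMK4 (0.166), SLC30A7 (0.168), WDR75 (0.169) and C2CD2 (0.17). CAMK4 is a calcium-dependent kinase of T cells. Since these genes were chosen for their likeness to CD8A, their differences between the groups were not tested apart from it. Nearest to CD4, whose SD was 0.14, were RPS15 (0.0623), LHFPL6 (0.0652), RPL7 (0.0691), SMCO4 (0.07) and PSMA2 (0.0708), a list with 2 ribosomal proteins and a proteasome subunit.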

How the data were processed

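Blood mononuclear cell RNA of 13 animals was hybridised to Affymetrix rhesus arrays, 1 an animal, per the labels. The deposited table holds log2 values by probe set, which, per the submitters' processing notes, the authors computed with RMA. Its version, the genome build, array annotation and scan batches were not given in the labels or the notes. Arrays have no read depth, and precision is limited by their number. Of 52865 probe sets, 158 controls were left out. Gene names came from the platform annotation, for the 24956 probe sets it pairs with 1 symbol, while 361 had several symbols and 27390 none. Probe sets with a mean above the median of means were tested.

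limma 3.58.1 in R 4.3.3 (lmFit, eBayes) was fitted once to all 13 arrays with a mean for each group, so the groups share 1 estimate of spread; for a probe set that spreads more in maternal animals, errors against that group are too small. The non-maternal mean is that of the peer and surrogate-peer group means. Adjusted p-values are two-sided Benjamini-Hochberg values over 26352 probe sets. The brightest probe set stands for a gene. Genes of a pathway list were named where they passed the threshold in any comparison, and otherwise the 3 with the smallest p. The 5 nearest genes were named for CD8A and CD4, and the same rule for the CD3 chains gave no result. The members, the 6 pathway and 9 marker lists and the alternatives were chosen with earlier results of these data known. The fit was tested on simulated data with independent noise and the same spread in every group, which does not cover unequal spread between groups. Replicate numbers were given in accession order and pair no animals. Each sample title was taken as 1 animal, and p-values measure the spread between these arrays.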

Additional observations from a re-analysis of the deposited data

Results flagged for a closer look

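ZAP70 on its first probe set was 12.30 in peer 4, while the next highest peer animal was at 12.04; the gap was 0.85 of the range of the 4 peer animals, a gap above the limit used for a lone high or low value. It was the 1 such case among 27 groups of values checked, and chance gives about 1 in 20, or 5%, so that 1 case is no more than chance gives.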

How the results depend on the processing

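The fits were repeated in 23 other settings, 13 of which left out 1 array. No paired analysis was possible because replicate numbers were given in accession order and the labels pair no animals across groups.

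For non-maternal over maternal animals, 2 of 9 member probe sets were called with all arrays. The count was 1 (CD8A) without a filter, with arrays centred, after quantile normalization and with weights per group, 4 with the filter at the 75th percentile, 0 without maternal 2 and 5, and 0 to 4 with 1 array left out (0 without maternal 4 or 5, 4 without surrogate-peer 2). Calls over all probe sets, 2107 in the main setting, were 1337 after quantile normalization, 1367 with weights per group, 37 without maternal 2 and 5, and 29 to 4830 with 1 array left out. The low end was without maternal 4, and without maternal 5 it was 57; the high end was without maternal 1. ZAP70 on its second probe set was -0.04 with centring, -0.07 after quantile normalization and -0.03 with weights per array, and it ran from -0.15 to 0.19 with 1 array left out, while the first ran from -0.01 to 0.27. Without maternal 2 and 5, the second LAT probe set was -0.08 and ZAP70 was -0.20 and -0.33. Pathway calls, 2 in the main setting, were 1 without a filter and with trend and robust eBayes, 0 without maternal 2 and 5 and 0 to 6 with 1 array left out. List medians were -0.35 for kinases and 0.29 for surface receptors under the filter at the 75th percentile, where fewer genes were measured, and 0.16 for effectors without maternal 2 and 5. The count of member probe sets without overlap was 1 to 2 with 1 array left out.

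For peer over maternal animals, 93 probe sets were called in the main setting. The count was 50 without a filter, 1 with the filter at the 75th percentile, 5 with centring, 6 after quantile normalization, 1543 with weights per array, 1187 with weights per group, 59 with trend and robust eBayes, 1819 with the title number as a covariate, 0 with the arrays of these groups alone, 3 without maternal 2 and 5, and 0 to 3488 with 1 array left out. Member calls, 0 in the main setting, were 2 with weights per array, 1 with weights per group, 1 with the title number and 0 to 2 with 1 array left out. Members without overlap, 2 in the main setting, were 1 after quantile normalization and 2 to 4 with 1 array left out. Without maternal 2 and 5, the second LAT probe set was -0.09 and ZAP70 on its first -0.21. With 1 array left out, ZAP70 ran from -0.02 to 0.26 on its first probe set and from -0.22 to 0.12 on its second.

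For surrogate-peer over maternal animals, calls over all probe sets, 0 in the main setting, were 1 without a filter, 33 with centring, 25 after quantile normalization, 7 with the title number, 1 without maternal 2 and 5, and 0 to 2097 with 1 array left out. Member calls were 0 to 2 and members without overlap 1 to 4 with 1 array left out. ZAP70 on its second probe set was 0 after quantile normalization and -0.26 without maternal 2 and 5, and ran from -0.08 to 0.26 with 1 array left out. Without maternal 2 and 5, ZAP70 on its first probe set was -0.19 and the second LAT probe set -0.08.

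For surrogate-peer over peer animals, values near 0 changed sign. CD8A was 0.01 and 0.02 on its probe sets with weights per array and 0.14 and 0.06 with the title number, LAT on its first probe set was 0.01 with the title number, and on the third 0 after quantile normalization. With 1 array left out, CD8A ran from -0.22 to 0.07 and from -0.19 to 0.09, the LAT probe sets from -0.12 to 0.07, -0.07 to 0.09 and -0.17 to 0.09, and ZAP70 on its first from -0.05 to 0.17. The causes of these changes were not tested.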

Other observations

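The genes nearest to the first LAT and the first ZAP70 probe sets were looked up after their values had been seen, by the measure used for CD8A and CD4. Nearest to the first LAT probe set, whose SD over the 13 arrays was 0.34, were MACF1 (root mean square difference 0.0737), ZNF512 (0.0914), CHRNA7 (0.0951), TMEM181 (0.105) and SPIN3 (0.109). These differences were below the 0.18 between the first and the third LAT probe set. Nearest to ZAP70, with an SD of 0.33, were USP47 (0.0938), RASSF1 (0.0951) and SEPTIN1 (0.0963), also below the 0.12 between the 2 ZAP70 probe sets.

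BCL11B, a transcription factor of T cells and a member of the T cell list, rose by 0.70 ± 0.16 (SE; limma adjusted p = 0.0313) on the log2 scale, with a mean of 6.57 ± 0.34 (SD, n = 8) in non-maternal and 5.87 ± 0.22 (SD, n = 5) in maternal animals. Its maternal mean lies under the level of 6.04 that the mean over all arrays had to exceed. TCF7, another factor of T cells, gave 0.63 ± 0.20 (adjusted p = 0.0689).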
